A study of Mus musculus with 6 samples.

Results

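Metabotropic glutamate receptors are G protein-coupled receptors for glutamate, and 6 genes of the family (Grm2, Grm3, Grm4, Grm5, Grm7 and Grm8) were followed here through the cell types of the mouse olfactory bulb. The genes were taken by name from a table of 18560 genes, and all 6 were found. RNA of single cells was measured in 6 libraries of olfactory bulb from C57BL/6NJ mice aged 14 weeks, with 2 libraries per condition, and each library was made from a pool of mice. Control mice had no manipulation by their labels, and naris occluded mice were deprived of odour input for 6 weeks by a plug in one nostril. Olfactory trained mice were enriched for 6 weeks by learning to discriminate odours. The study trained them while water deprived and with a water reward, which cannot be told apart here from odour learning. The study used mice of both sexes, and the sex of each library was read from its counts: the replicate 1 libraries held 1069 to 1147 UMIs of the Y-linked Ddx3y and 0 to 5 of Xist, and the replicate 2 libraries 19484 to 27254 of Xist and 0 of Ddx3y. The study describes the control bulbs both as those of naive mice and as the open side of occluded mice, and the labels were followed.

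The receptors fall into 3 groups by coupling and pharmacology. Group I, to which Grm5 belongs, couples to Gq and phospholipase C and raises intracellular calcium, and its members sit mostly at the postsynaptic membrane next to Homer and Shank scaffolds. Group II (Grm2 and Grm3) and group III (Grm4, Grm7 and Grm8) couple to Gi/o, lower cyclic AMP and often act on presynaptic terminals. In the olfactory bulb, mitral and tufted cells are the glutamatergic output neurons, and they release glutamate from their dendrites onto the inhibitory granule and periglomerular cells, many of which are born in the adult.

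Levels were followed over 40 clusters of cells, as annotated in the deposited files: 18 clusters of neurons with 21746 cells and 22 nonneuronal clusters with 28925 cells. For each cluster and library the counts of unique molecular identifiers (UMIs, 1 per captured transcript molecule) were summed over cells and divided by the sum over all genes, giving CPM, the counts scaled to a sum of 1000000. The ± values are the SD over the 6 libraries, which includes any difference between conditions. The libraries held between 6571 and 10433 cells of these clusters, with a median of 1018 to 1714 UMIs per cell and a median mitochondrial share of 9.25% to 14.5%. Library olfactory trained 1 had the lowest median depth and the highest mitochondrial share. Of the barcode sequences, 1427 (2.9%) occurred in more than 1 library.

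The labelled cell types were checked against marker genes. Cdhr1, Slc17a7 and Tbx21, which mark mitral and tufted cells, had their highest levels among n15-M/TC-1 and n17-M/TC-3, and Eomes in n16-M/TC-2. Sox11 and Dcx, which mark immature neurons, were highest in n04-Immature, Calb2 in n03-GC-1 and n02-PGC-1, Th in n05-PGC-2 and Calb1 in n08-PGC-3. Aqp4 and Slc1a3 were highest in Astro1, Pdgfra and Olig2 in OPC, Mag and Mog in MyOligo, and Pdgfrb and Rgs5 in Mural2. The cluster labelled n18-EPL-IN, for interneurons of the external plexiform layer, carried Pvalb at 64 ± 67.4 CPM and Crh at 138 ± 150 CPM. Both were listed at 0 in at least 1 library. Pvalb was highest in this cluster, but Crh was higher in n17-M/TC-3. The inhibitory marker Slc32a1 was also highest in n18-EPL-IN, at 1450 ± 336 CPM against 714 CPM in n14-GC-7, and Gad1 measured 1030 ± 181 CPM. The output neuron marker Slc17a7 was at 414 ± 184 CPM in n18-EPL-IN (2040 CPM in n17-M/TC-3), Cdhr1 at 66.4 CPM and Tbx21 at 0. The cluster held only 161 cells, and its values are uncertain.

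The 6 genes were thinly counted, so that levels in small clusters rest on few molecules. Over all 40 clusters there were 4098 UMIs of Grm5, 1487 of Grm4, 1095 of Grm2, 1067 of Grm3, 639 of Grm8 and 616 of Grm7. Neurons held 78.9% of the Grm5 UMIs, 83% for Grm4, 86.4% for Grm2, 75.5% for Grm7 and 88.6% for Grm8. For Grm3 only 19.1% of the UMIs were in neurons. The library chemistry counts the 3′ ends of transcripts, and levels are compared between clusters for 1 gene at a time, never between genes. Since cells of different clusters differ in RNA content, a CPM is a share of a cluster's RNA and not a number of molecules per cell.

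**Figure D1:**
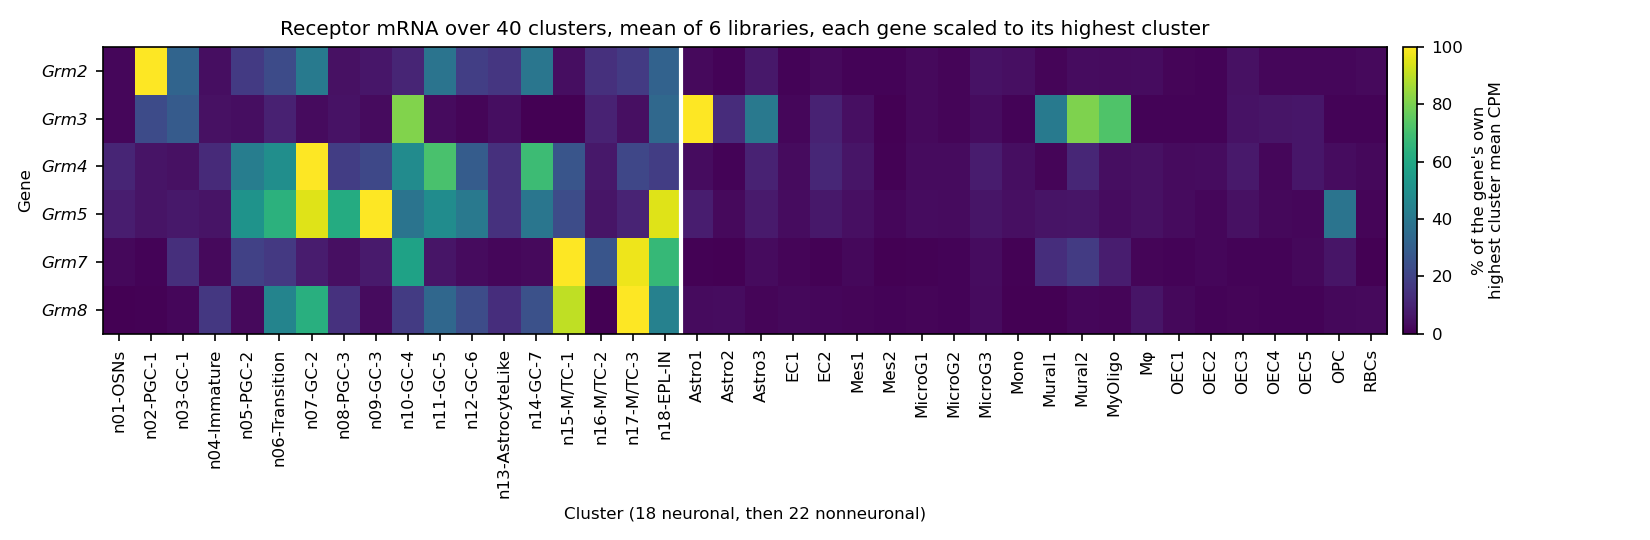
Receptor mRNA over the 18 neuronal clusters (left of the white line) and 22 nonneuronal clusters (right), as the mean CPM of 6 libraries in percent of the same gene's highest cluster. Grm3 is the gene whose highest cluster is nonneuronal (Astro1), and Grm7 and Grm8 are brightest in n15-M/TC-1 and n17-M/TC-3.

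Grm5, the group I receptor (GRCm38 chr7:87583981-88135063), was highest in granule cell clusters of the branch that runs through n06-Transition. In n09-GC-3 it measured 340 ± 82.5 CPM over 6 libraries, from 132 UMIs in 273 cells, with 453 and 296 CPM in control, 408 and 254 in naris occluded and 260 and 369 in trained libraries. In the larger n07-GC-2 cluster of 3608 cells it was 323 ± 12.1 CPM, with 320 and 305 CPM in control, 334 and 337 in naris occluded and 325 and 315 in trained libraries. The 6 values in n07-GC-2 fell within the range of those in n09-GC-3, which exceeded n07-GC-2 in 3 of 6 libraries.

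The n18-EPL-IN cluster had a similar mean (324 ± 202 CPM) with single libraries from 70.2 to 583 CPM, and its place in the order is therefore unsettled. Below these came n06-Transition at 218 ± 32.5 CPM, which was lower than n07-GC-2 in 6 of 6 libraries with no overlap. The periglomerular clusters n08-PGC-3 (209 ± 37.7) and n05-PGC-2 (174 ± 47.5) and the granule cluster n11-GC-5 (166 ± 19.7) followed, and each neighbouring pair in this stretch differed by less than the larger SD of the pair. A UMI of Grm5 was seen in 945 of 3608 n07-GC-2 cells, and after thinning each cell to 500 UMIs the expected share was 15.1%. The thinned share was 0.515% in MicroG2, a microglial cluster with a median of 1847 UMIs per cell.

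The Calb2-rich inhibitory clusters were low in Grm5. Its level was 22.4 ± 5.06 CPM in n03-GC-1, with 17.3 ± 11.9 in n02-PGC-1, so that n07-GC-2 was 14.4 times and 18.7 times higher, in 6 of 6 libraries each and with no overlap. Within periglomerular cells the same division was seen, since the Th-rich n05-PGC-2 exceeded the Calb2-rich n02-PGC-1 by 3.43 ± 0.65 on the log2(CPM + 1) scale. In the output neurons Grm5 measured 34.2 ± 11.1 CPM in n17-M/TC-3 and 18.8 ± 16.2 in n16-M/TC-2. In n15-M/TC-1, with 13 UMIs in 90 cells, it measured 78.9 ± 52.1 CPM, with single libraries from 0 to 139 CPM.

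Outside neurons Grm5 stood out in oligodendrocyte precursors. OPC measured 131 ± 28.7 CPM from 159 UMIs in 397 cells, and single libraries ran from 90.6 to 162 CPM. This was 11.1 times the level in MyOligo, the myelinating oligodendrocytes, and 4.86 times that in Astro1 (27 ± 4.3 CPM), higher in 6 of 6 libraries and without overlap in both cases. In OPC the neuronal markers Snap25 and Gad1 measured 162 and 112 CPM, against 110 and 94.3 CPM in MyOligo, and their part in the Grm5 level was not tested. The median over the 22 nonneuronal clusters was 12.8 CPM, and red blood cells, which should hold no Grm5, were at 4.17 CPM. That value came from 4 UMIs in control 1 and 1 in naris occluded 2. The hemoglobin genes Hbb-bs (390000 CPM) and Hba-a1 (199000 CPM) fill most of the red blood cell counts. The value is therefore no measure of the background in other clusters.

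Grm2, a group II receptor (GRCm38 chr9:106644534-106656109), had its highest level in n02-PGC-1, the Calb2-rich periglomerular cluster in which Grm5 was low. The mean was 122 ± 18.8 CPM from 250 UMIs in 1037 cells, with 134 CPM in both control libraries, 143 and 93 in the naris occluded and 115 and 111 in the trained ones. Each of these values lay above each value of n07-GC-2 (50.5 ± 11.6 CPM), n03-GC-1 (39.5 ± 7.31) and n05-PGC-2 (20.7 ± 9.43). The calbindin periglomerular cluster n08-PGC-3 held only 3 UMIs of Grm2, or 5.41 CPM, so the periglomerular clusters spread from 5.41 to 122 CPM.

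Behind n02-PGC-1 the order of clusters was flat. The clusters n07-GC-2, n14-GC-7, n11-GC-5, n03-GC-1 and n18-EPL-IN lay between 38.6 and 50.5 CPM, and no neighbours among them differed beyond the larger SD. A UMI was seen in 212 of 1037 n02-PGC-1 cells, and the thinned share was 5.81%, against 0.0804% in MicroG2. None of the 22 nonneuronal clusters had a mean above 7.79 CPM (Astro3).

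Grm3, the other group II receptor (GRCm38 chr5:9485236-9725352), was counted mainly outside neurons here, with its highest nonneuronal means in glial and mural clusters. In Astro1, the astrocyte cluster with the most Aqp4 and Slc1a3, it measured 75 ± 9.2 CPM from 467 UMIs in 3130 cells, with 70 and 77 CPM in control, 83.3 and 87.6 in naris occluded and 64 and 68.3 in trained libraries. Astro3 had 30.2 ± 9.35 CPM, lower than Astro1 in 6 of 6 libraries with no overlap. The Gfap-rich Astro2 had 9.62 CPM, the lowest of the 3 astrocyte clusters.

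The mural cell cluster Mural2, pericytes and smooth muscle by its markers, held Grm3 at 60.5 ± 23.3 CPM, and MyOligo at 54.4 ± 7.85 CPM. Neither was separated from its neighbours in the order by more than the larger SD, except that MyOligo exceeded Mural1 (30.6 ± 17.1 CPM) in 6 of 6 libraries. The astrocyte marker Slc1a3 measured 3490 CPM in Astro1, 180 CPM in Mural2 and 170 CPM in MyOligo. Aqp4 measured 34.3 CPM in Mural2 and 22.5 CPM in MyOligo, against 1000 CPM in Astro1. The part of astrocyte RNA in these Grm3 levels was not tested.

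Within the oligodendrocyte lineage Grm3 and Grm5 were arranged in opposite ways. OPC held Grm3 at 0.708 CPM, from 1 UMI in control 1, and MyOligo at 54.4 CPM. The difference was 5.38 ± 0.91 on the log2(CPM + 1) scale and was seen in 6 of 6 libraries. Its size depends on the pseudocount of 1 CPM. For Grm5 the OPC level was higher by 3.38 ± 0.47 on the same scale, again in 6 of 6 libraries.

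Among neurons Grm3 was high in the small granule cluster n10-GC-4. It measured 60.7 ± 15 CPM there from 29 UMIs in 234 cells, with single libraries from 42.5 to 87.1 CPM, which was 27.3 times the level of n11-GC-5. Astro1 was higher than n10-GC-4 in 5 of 6 libraries, but its mean was higher by less than the larger SD. Slc1a3 was at 56.2 ± 40.2 CPM in n10-GC-4, Aqp4 at 6.93 CPM and Mag and Pdgfrb at 0. The Calb2-rich clusters n03-GC-1 (21.5 ± 7.8 CPM) and n02-PGC-1 (17.1 ± 6.87 CPM) came next among the larger neuronal clusters, whereas n07-GC-2 had 2.34 CPM. In n02-PGC-1 Slc1a3 was at 696 ± 84.2 CPM and Aqp4 at 12.9 CPM, and their part in its Grm3 level was not tested.

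Grm4, a group III receptor (GRCm38 chr17:27422387-27513826), had its 3 highest levels in granule clusters, although other granule clusters were low. It was highest in n07-GC-2 at 121 ± 16.1 CPM from 428 UMIs, with 113 and 129 CPM in control, 128 and 100 in naris occluded and 111 and 146 in trained libraries. The granule cluster n11-GC-5 came second with 86.4 ± 20.8 CPM. It was lower than n07-GC-2 in 6 of 6 libraries, although the ranges overlapped, and the gap exceeded the larger SD. The clusters differ in depth. In library control 1, 295 of 731 n07-GC-2 cells and 314 of 332 n11-GC-5 cells had at least 1000 UMIs. The n07-GC-2 level was lower in such cells, as given in the last section, so its lead over n11-GC-5 is uncertain. Next were n14-GC-7 (83 ± 29.8), n06-Transition (60 ± 17.8), n10-GC-4 (58.4 ± 45.4) and n05-PGC-2 (51.4 ± 22.8), whose neighbours did not differ beyond their spread.

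As with Grm5, the Calb2-rich clusters were low in Grm4. Its level was 5.45 ± 4.8 CPM in n03-GC-1, with 6.21 ± 2.74 in n02-PGC-1, and n07-GC-2 was 22.2 and 19.5 times higher. These levels were close to the median of 4.05 CPM over nonneuronal clusters. Unlike Grm5, Grm4 was not high in n09-GC-3, where it measured 26 ± 20.4 CPM from 10 UMIs, so that n07-GC-2 was 4.65 times higher in Grm4, whereas the difference in Grm5 between these clusters was smaller than the spread.

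Grm7, also of group III and known as a receptor of presynaptic active zones (GRCm38 chr6:110645349-111567230), was highest in mitral and tufted cells. In n17-M/TC-3, the largest of the 3 clusters with 927 cells, it measured 123 ± 28.1 CPM from 174 UMIs, with 105 and 169 CPM in control, 96.7 and 111 in naris occluded and 111 and 145 in trained libraries. The mean in n15-M/TC-1 was 126 ± 62.8 CPM, but from 22 UMIs in 90 cells, with naris occluded 2 at 0 and the other libraries between 139 and 167 CPM. Compared with the granule cluster n07-GC-2 (9.64 CPM), n17-M/TC-3 was 12.8 times higher in 6 of 6 libraries without overlap.

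Grm7 was also measured in 2 smaller clusters labelled as inhibitory neurons. It reached 84.3 ± 52 CPM in n18-EPL-IN and 72.6 ± 45 CPM in n10-GC-4, and the n10-GC-4 value was lower than that of n17-M/TC-3 in 5 of 6 libraries. The ranges of all 3 clusters overlapped, and the part of the Slc17a7 RNA of n18-EPL-IN in its Grm7 level was not tested. Among nonneuronal clusters Mural2 was highest at 22.1 ± 5.47 CPM from 26 UMIs, in all 6 libraries between 11.5 and 26.8 CPM, while the median of nonneuronal clusters was 1.54 CPM. Snap25 and Gad1 measured 236 and 210 CPM in Mural2.

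Grm8, the remaining group III receptor (GRCm38 chr6:27275121-28135146), was highest in the output neurons of n17-M/TC-3, and among the granule clusters in n07-GC-2. In n17-M/TC-3 it measured 75.1 ± 20.6 CPM from 104 UMIs, with 52.4 and 106 CPM in control, 53.7 and 70.7 in naris occluded and 88.6 and 79.3 in trained libraries. The small n15-M/TC-1 cluster came next in the order with 67.8 ± 59.2 CPM from 12 UMIs, with single libraries from 0 to 160 CPM. In n07-GC-2 Grm8 measured 47.5 ± 10.1 CPM from 160 UMIs, lower than n17-M/TC-3 in 5 of 6 libraries with overlapping ranges. The clusters n06-Transition (34 ± 15.9 CPM), n18-EPL-IN (32.9 ± 38.7 CPM, from 6 UMIs) and n11-GC-5 (25 ± 6.99 CPM) followed. In n09-GC-3, the other granule cluster of the n06 branch, Grm8 measured 2.22 ± 5.44 CPM from 1 UMI.

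The mitral and tufted clusters were not alike in Grm8. In n16-M/TC-2, the Eomes-rich cluster of 116 cells, no UMI of Grm8 was found among 240566 UMIs, which allows a level of up to 12.5 CPM (3 counts over the cluster) and up to 2.59% of cells with a UMI. The level in n17-M/TC-3 was therefore at least 6.02-fold higher, a bound that covers counting error only. Grm7 was measured at 33.4 ± 53.3 CPM in n16-M/TC-2 from 4 UMIs. Its level in n17-M/TC-3 was higher in 6 of 6 libraries and 3.69 times higher in the mean. The ranges overlapped, and with 4 UMIs the size of this difference is uncertain. In the Calb2-rich clusters Grm8 was close to absent from the counts, with 1 UMI in n02-PGC-1 and 5 in n03-GC-1.

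**Figure D2:**
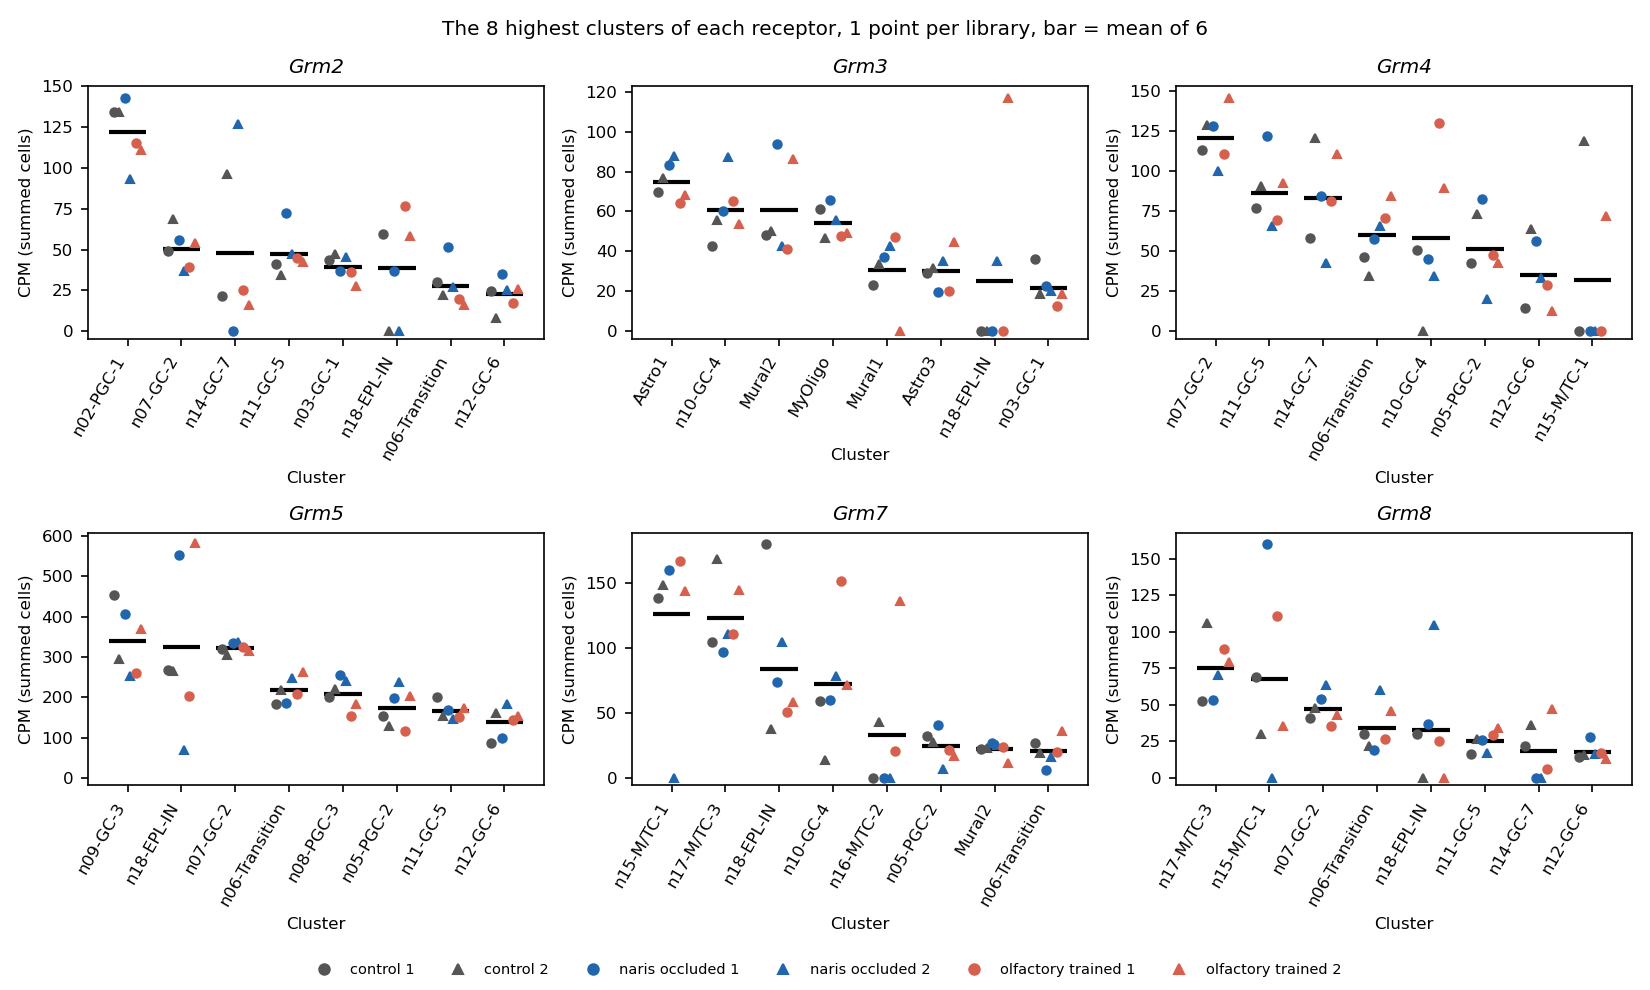
The 8 highest clusters of each receptor, with 1 point per library (circles, replicate 1; triangles, replicate 2) and a bar at the mean of 6 libraries, in CPM of summed cells. Points of n07-GC-2 in the Grm5 panel sit between 305 and 337 CPM, while those of small clusters such as n18-EPL-IN spread from 70.2 to 583 CPM.

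Immature adult-born neurons (n04-Immature) are divided by the study into one route of maturation toward 8 clusters, called axis A (n02, n03, n05, n08, n10, n11, n12 and n14), and another toward 3, called axis B (n06, n07 and n09). The receptors were compared between n04-Immature and the summed clusters of each axis. The clusters were defined from gene expression in these same cells, so the differences are given without a test. In n04-Immature, with 3910 cells, Grm5 measured 18 ± 8.84 CPM, Grm4 14.6 ± 3.16, Grm8 12.1 ± 5.3, Grm2 4.52 ± 1.9, Grm3 3.25 ± 2.42 and Grm7 3.16 ± 1.94.

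Grm5 had the widest difference on axis B, from 18 to 293 ± 14.6 CPM, a log2 ratio of 4.08 ± 0.69, and on axis A it reached 104 ± 8.85 CPM (log2 ratio 2.59 ± 0.62). The step was already large at n06-Transition, which was 12.1 times n04-Immature in Grm5 and 4.11 times in Grm4, in 6 of 6 libraries without overlap. Its size is uncertain, since these clusters differ in depth. In library control 1, 65 of 345 n06-Transition cells and 536 of 721 n04-Immature cells had at least 1000 UMIs. The Grm5 level of n04-Immature was also not far from the median of 12.8 CPM over nonneuronal clusters. The sum of Grm4 was likewise higher on axis B (log2 ratio 2.64 ± 0.27) than on axis A (1.50 ± 0.37), but clusters within each axis differed. On axis A, n11-GC-5 (86.4 CPM) and n14-GC-7 (83) had higher means than n09-GC-3 of axis B (26). The axis A clusters n02-PGC-1 (6.21) and n03-GC-1 (5.45) were low. Grm2 leaned toward axis A, with log2 ratios of 3.36 ± 0.64 on axis A and 2.98 ± 0.61 on axis B, a gap within the SD of either.

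For Grm8 the sum over axis B was higher than n04-Immature, and the clusters within each axis differed. Over axis B it reached 40.2 ± 8 CPM (log2 ratio 1.76 ± 0.91, higher in 6 of 6 libraries). On axis A it measured 11.6 ± 3.31 CPM, close to n04-Immature, with a log2 ratio of 0.04 ± 0.73 that changed sign when naris occluded 2 (−0.17) or olfactory trained 2 (−0.04) was left out. Within axis A, n11-GC-5 exceeded n04-Immature in 6 of 6 libraries, and within axis B n09-GC-3 held 1 UMI among 382272, too few to place its libraries singly against n04-Immature (3 counts over the cluster are 7.85 CPM). Grm3 was higher on axis A (1.80 ± 1.04, in 6 of 6 libraries) but on axis B its ratio of 0.32 ± 1.33 was within the spread and positive in 3 of 6 libraries. Grm7 measured 11.9 ± 2.15 CPM on axis A and 13 ± 3.33 CPM on axis B, with log2 ratios of 1.75 ± 0.85 and 1.85 ± 0.88.

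**Figure D3:**
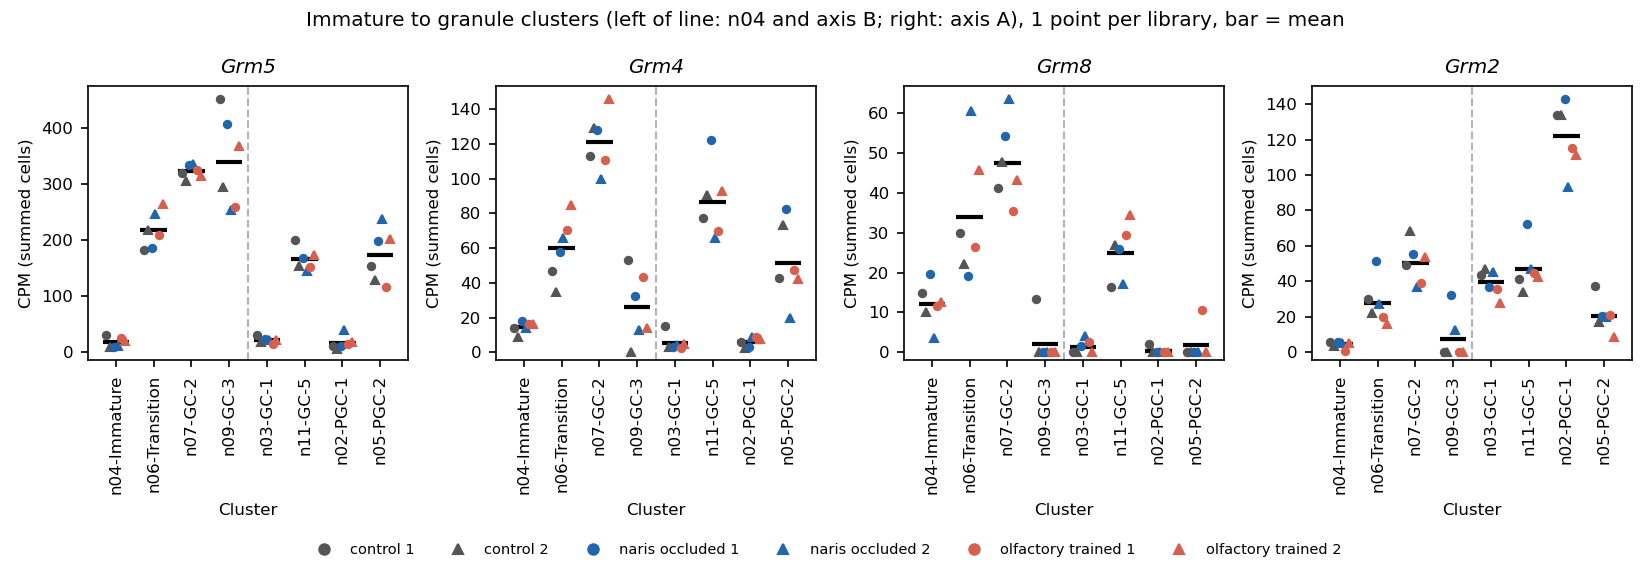
Levels of Grm5, Grm4, Grm8 and Grm2 in n04-Immature and the larger clusters of axis B (left of the dashed line) and axis A (right), in CPM of summed cells, 1 point per library and a bar at the mean. Grm5 climbs from 18 CPM in n04-Immature to 218 in n06-Transition and 323 in n07-GC-2, and Grm2 is highest in n02-PGC-1.

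For each receptor the genes with the most similar levels over the 40 clusters were listed by Pearson's r of log2(mean CPM + 1), among 12822 genes with at least 20 CPM in some cluster. The clusters share libraries and differ in depth, and r is given as a description. Among the nearest to Grm5 were Scn3a, a voltage-gated sodium channel (r = 0.88), and Asic2, an acid-sensing channel (0.88). Grm4 was nearest to Camk2b, a subunit of the calcium/calmodulin-dependent kinase II (0.91), Crhr1, the receptor of corticotropin-releasing hormone (0.90), and Fam163b (0.89).

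Grm2 was nearest to the potassium channel subunit Kcnf1 (r = 0.91) and the plasma membrane calcium pump Atp2b1 (0.89). Grm8 was nearest to Ntng1, which encodes the axonal adhesion protein netrin-G1 (0.88), Slc35f4 (0.86) and the presynaptic adhesion gene Nrxn3 (0.83). Grm7 had lower values, with Wbscr17 (0.84), Pcnxl2 (0.82) and the sarcoglycan gene Sgcz (0.80). Grm3 had the lowest, with the glycogen pathway enzyme Ugp2 (0.66), the growth factor Fgf1 (0.65) and the heme transporter Slc48a1 (0.64). Among the receptors themselves Grm4 and Grm5 were the most alike (0.83), and Grm3 was unlike all the others, with r from −0.12 (Grm8) to 0.31 (Grm7).

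The receptors were then compared between conditions within each cluster, to ask whether occlusion or training went with a change in their mRNA. Counts summed per library were tested with edgeR's quasi-likelihood test in 31 populations with at least 30 cells in every library, the 3 mitral and tufted clusters being summed into 1. The 2 libraries of a condition differ in sex by Xist and Ddx3y and are pools, so the p-values rest on the spread between pools. In a summed cluster, fewer cells of a subtype and less RNA per cell cannot be told apart. Of the pairs of a receptor and a population, 37 had counts enough to be tested: 17 for Grm5, 6 for Grm4, 5 for Grm8, 4 each for Grm2 and Grm3 and 1 for Grm7.

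No receptor passed an adjusted p of 0.05 in any tested population in any of the 3 comparisons (edgeR, Benjamini-Hochberg over all genes of the population). Over all genes the same rule called 0.0651% of pairs for naris occluded against control, 0.0949% for olfactory trained against control and 0.178% for olfactory trained against naris occluded, so few calls were to be had among 37 pairs. At an unadjusted p under 0.05 there were 4, 1 and 2 receptor pairs in the same order, or 10.8%, 2.7% and 5.41%, beside 4.78%, 5.83% and 7.33% of all pairs. DESeq2 called 0 and had 0 pairs at an unadjusted p under 0.05 in each comparison. The median log2 fold changes over the 37 pairs were −0.13, −0.05 and 0.01, and the median over all tested genes of a population lay between −0.01 and 0.02 in each.

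The intervals show how large a change could have been missed. Among the tightest were those of Grm5 in n07-GC-2 and n11-GC-5 and of Grm3 in Astro1. In n07-GC-2 the log2 fold change of Grm5 was 0.03 (95% interval −0.34 to 0.39) for naris occluded against control and 0.00 (−0.36 to 0.36) for olfactory trained against control. Half-widths of the 95% interval over all 37 pairs ran from 0.34 to 1.47 on the log2 scale, and a change of 1 on that scale lay inside the interval for 22, 16 and 22 of the 37 pairs in the 3 comparisons.

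The largest difference was that of Grm5 in n14-GC-7, a granule cluster of 679 cells. Its normalised CPM (scaled by TMM over tested genes) was 244 and 178 in control, 75 and 57.4 in naris occluded and 218 and 297 in trained libraries. The naris occluded values lay below those of both other conditions, but rested on 2 and 1 UMIs of Grm5 in 38 and 36 cells. The other libraries had 11 to 27 UMIs in 90 to 222 cells. The log2 fold change was −1.65 (SE 0.71, adjusted p = 0.948 in edgeR) for naris occluded against control and 1.81 (SE 0.69, adjusted p = 0.786 in edgeR) for olfactory trained against naris occluded, which share the naris occluded libraries.

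Grm5 also had an unadjusted p under 0.05 for naris occluded against control in mitral and tufted cells (log2 fold change −1.01, 95% interval −1.96 to −0.06) and in n04-Immature (−0.94, −1.83 to −0.04). In n04-Immature the normalised CPM was 31 and 9.22 in control, 10.1 and 12.7 in naris occluded and 25.7 and 21.1 in trained libraries. Control 2 lay below both naris occluded libraries, and the log2 fold change against control turned to 0.31 without control 1. The comparison of olfactory trained with naris occluded in n04-Immature gave 1.02 (0.14 to 1.89). Over its 17 populations the fitted log2 fold change of Grm5 for naris occluded against control was below 0 in 13, with a median of −0.22. These populations share their libraries, and some held little Grm5, such as OEC4 with 3.42 to 12.3 normalised CPM. The smallest p for olfactory trained against control was in MicroG2 (−1.10, SE 0.55), at 5.73 to 16.8 normalised CPM.

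For Grm4 the smallest p values were all in n06-Transition. Its normalised CPM was 52.2 and 39 in control, 62.4 and 71.4 in naris occluded and 77.7 and 89.1 in trained libraries, so the trained libraries were the highest and the control libraries the lowest. The log2 fold change was 0.86 (SE 0.36, adjusted p = 0.867 in edgeR) for olfactory trained against control and 0.56 (SE 0.44) for naris occluded against control. In the same cluster Hbb-bs, a hemoglobin gene of red blood cells, was lower in trained than in control libraries by a log2 fold change of −1.32, and its part was not tested. In n07-GC-2, where Grm4 was highest, the log2 fold changes were 0.05 (−0.35 to 0.46) for olfactory trained against control and −0.09 (−0.53 to 0.34) for naris occluded against control.

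Grm2 and Grm3 were tested in 4 populations each. Grm2 in n11-GC-5 was at 42.6 and 35.6 normalised CPM in control and 73.1 and 48.9 in naris occluded libraries, a log2 fold change of 0.59 (SE 0.28, adjusted p = 0.983 in edgeR) that fell to 0.29 without naris occluded 1. Hbb-bs and Hba-a1 were also higher there in naris occluded than in control libraries (log2 fold changes 4.19 and 5.07), and their part was not tested. The smallest p of Grm2 for olfactory trained against control was in n07-GC-2 (−0.35, SE 0.28), where Hbb-bs was lower as well (log2 fold change −1.32) and its part was not tested. For olfactory trained against naris occluded it was in n11-GC-5 (−0.41, SE 0.27), and this log2 fold change was −0.11 without naris occluded 1. Hbb-bs, Hba-a1 and Calb2 were lower there in trained libraries as well (log2 fold changes −5.35, −5.86 and −0.71). Their part was not tested. Grm3 in Astro1 was at 83.9 and 88.8 normalised CPM in naris occluded and 64.3 and 69.8 in trained libraries, a log2 fold change of −0.37 (SE 0.18, adjusted p = 0.67 in edgeR). In the same comparison of Astro1, Hbb-bs and Hba-a1 were lower in trained libraries (log2 fold changes −2.71 and −3.38), and their part was not tested. Against control, naris occluded Astro1 cells differed by 0.21 (SE 0.18), and in n03-GC-1 trained libraries differed in Grm3 by −0.98 (SE 0.57).

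Grm7 could be tested only in mitral and tufted cells. It was at 108 and 165 normalised CPM in control, 92.4 and 96.4 in naris occluded and 115 and 157 in trained libraries, so the naris occluded pools were lowest. The log2 fold changes were −0.52 (SE 0.30, adjusted p = 0.62 in edgeR) for naris occluded against control, −0.02 (SE 0.31) for olfactory trained against control and 0.50 (SE 0.32) for olfactory trained against naris occluded. The first of these was −0.19 without control 2. Grm8 had its smallest p values in n07-GC-2, with 0.32 (SE 0.29) for naris occluded against control and −0.52 (SE 0.29) for olfactory trained against naris occluded, and in n11-GC-5, with 0.62 (SE 0.39) for olfactory trained against control, which was 0.21 without control 1. In n07-GC-2 Hbb-bs and Calb2 were also lower in trained than in naris occluded libraries (log2 fold changes −1.52 and −1.02), and their part was not tested. In mitral and tufted cells Hba-a1 and Crh were lower in naris occluded than in control libraries, by log2 fold changes of −5.09 and −1.82. In trained libraries of these cells Gad1 was higher than in naris occluded ones (1.45), and Crh, Hbb-bs and Hba-a1 were lower than in control (−2.46, −2.22 and −4.96). The part of these markers was not tested.

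**Figure D4:**
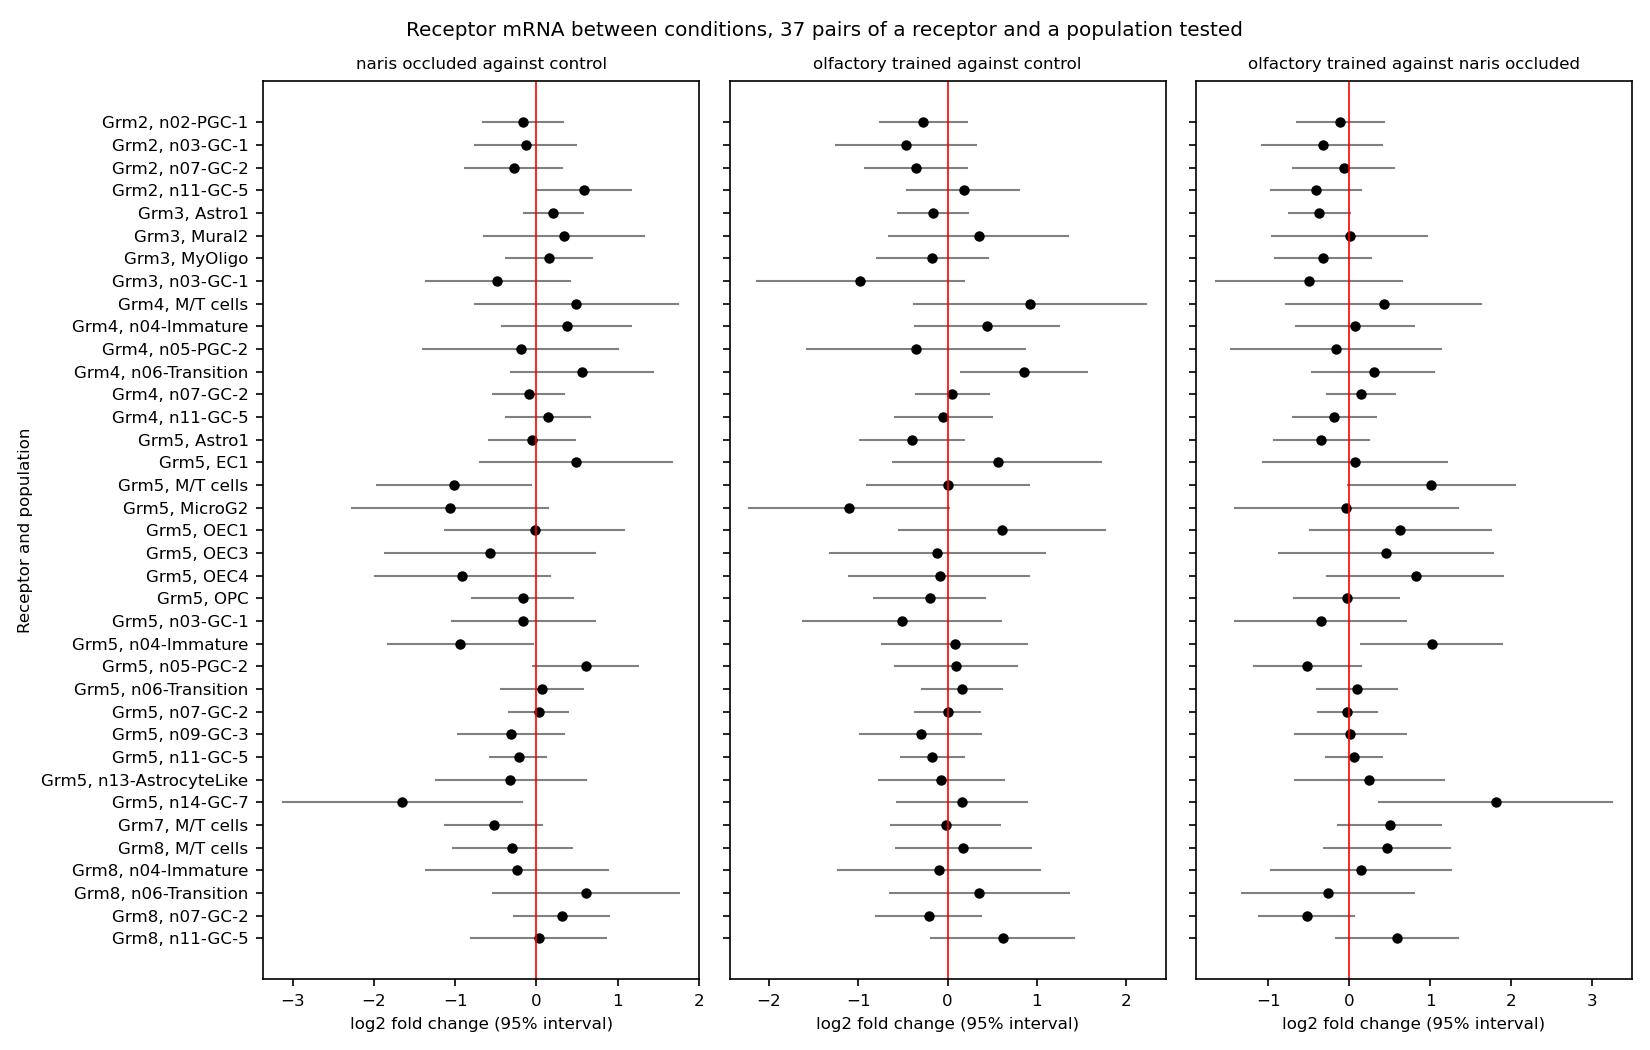
Log2 fold changes (points) with 95% intervals (lines) of the 37 pairs of a receptor and a population in the 3 comparisons, with 2 libraries per condition and 0 marked by a red line. The intervals of Grm5 in n14-GC-7 lie away from 0 in both comparisons with naris occluded libraries, and no pair passed an adjusted p of 0.05.

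Partners of the receptors were followed in the same fits, from a list of 39 gene symbols for their G proteins and effectors, scaffolds, binding proteins and glutamate handling, of which 36 were tested in 621 pairs. Grasp and Tamalin in that list are names of the same gene, which the table holds as Grasp. For naris occluded against control 0 of the 621 pairs passed in edgeR, with 43 (6.92%) at an unadjusted p under 0.05, beside 4.78% of all pairs. The same counts were 41 (6.6% beside 5.83%) for olfactory trained against control and 69 (11.1% beside 7.33%) for olfactory trained against naris occluded. For olfactory trained against control 2 pairs rose and 0 fell (0.322% of pairs, against 0.0949% of all genes), and for olfactory trained against naris occluded 4 rose and 0 fell (0.644% against 0.178%). The trained libraries are the same in both. The list was chosen with earlier results of these data known, so its shares beside those of all genes are no independent test. The median log2 fold changes of the list were −0.06, 0.05 and 0.09.

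Both pairs against control were in the granule cluster n11-GC-5, and both genes encode proteins that bind group I receptors. Homer1 encodes a postsynaptic scaffold that links Grm5 to its calcium stores, and some of its transcripts are induced by neuronal activity. It was at 80.9 and 99.1 normalised CPM in control, 73.1 and 86.9 in naris occluded and 204 and 162 in trained libraries. The trained libraries lay above all others, with a log2 fold change of 1.06 (SE 0.20, adjusted p = 0.0246 in edgeR) against control and 1.19 (SE 0.19, adjusted p = 0.0014 in edgeR) against naris occluded.

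Grasp, or tamalin, encodes a scaffold that binds group I receptors and their trafficking machinery. It was at 90.9 and 81.4 normalised CPM in control, 68.3 and 63.8 in naris occluded and 196 and 166 in trained libraries. The log2 fold change was 1.06 (SE 0.19, adjusted p = 0.0246 in edgeR) against control and 1.46 (SE 0.19, adjusted p = 1.0e-04 in edgeR) against naris occluded. In n11-GC-5 the rule called 0.122% of genes as higher in trained than in control libraries and 0.268% as higher than in naris occluded ones. Grm5 itself, in the same cells, had log2 fold changes of −0.17 (95% interval −0.52 to 0.18) against control and 0.06 (−0.29 to 0.40) against naris occluded.

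The calls against control were not stable to the choice of test or libraries. DESeq2 called neither gene against control, and neither passed without olfactory trained 1, where the log2 fold changes were 0.87 for Homer1 and 0.92 for Grasp, or without either control library. Against naris occluded, Homer1 was lost in DESeq2 (log2 fold change 1.19, adjusted p = 0.0701) and without olfactory trained 1 (1.01, adjusted p = 0.149 in edgeR), and Grasp passed under each alternative tried. Of 26 cell type markers tested in n11-GC-5, Hbb-bs, Hba-a1 and Calb2 were lower in trained than in naris occluded libraries (log2 fold changes −5.35, −5.86 and −0.71), and none passed between trained and control libraries. Their part in the result was not tested.

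The same direction was measured elsewhere without a call. Homer1 had a higher fitted mean in trained than in control libraries in all 18 other populations tested, with log2 fold changes from 0.16 to 2.37. Grasp had one in 8 of 10 (−0.09 to 0.89). Nonneuronal populations were among them, with Homer1 values from 0.16 in OPC to 1.71 in MyOligo and 1.74 in OEC5, and 1.06 in EC1. All of these populations share their libraries and any RNA free in the cell suspension, and are not independent. In n07-GC-2 the log2 fold change against control was 0.81 (95% interval 0.37 to 1.25, adjusted p = 0.31 in edgeR) for Homer1 and 0.72 (0.25 to 1.20, adjusted p = 0.435) for Grasp, beside the lower Hbb-bs given above. In n06-Transition the values were 0.85 (0.32 to 1.39) and 0.66 (−0.01 to 1.33).

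The third gene was Ncdn, or neurochondrin, a neuronal protein that binds Grm5 and promotes its surface expression. Its 2 calls, for olfactory trained against naris occluded, were in nonneuronal cells. In the endothelial cluster EC2 it was at 93.3 and 142 normalised CPM in naris occluded and 292 and 315 in trained libraries. The control libraries lay between them at 182 and 253. The log2 fold change of trained against naris occluded was 1.31 (SE 0.30, adjusted p = 0.0191 in edgeR). In the ensheathing cluster OEC4 the log2 fold change was 0.67 (SE 0.15, adjusted p = 0.0367 in edgeR). The highest level of Ncdn was in neurons (n11-GC-5, 946 ± 73.4 CPM), where it was not called. The direction was not particular to EC2 and OEC4. Of the 29 populations without a call, 27 had a higher fitted mean of Ncdn in trained than in naris occluded libraries. Their log2 fold changes ran from −0.08 to 1.30, and the populations share their libraries. In EC2 Hbb-bs, Hba-a1 and Cldn5 were lower in trained than in naris occluded libraries as well (log2 fold changes −4.40, −2.89 and −0.63), and in OEC4 the same genes were lower too (−2.41, −3.08 and −0.64). Their part was not tested. Both Ncdn calls were lost in DESeq2, in cells with at least 1000 UMIs and without olfactory trained 1, where the log2 fold changes were 1.34, 1.04 and 1.37 in EC2 and 0.66, 0.64 and 0.51 in OEC4.

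**Figure D5:**
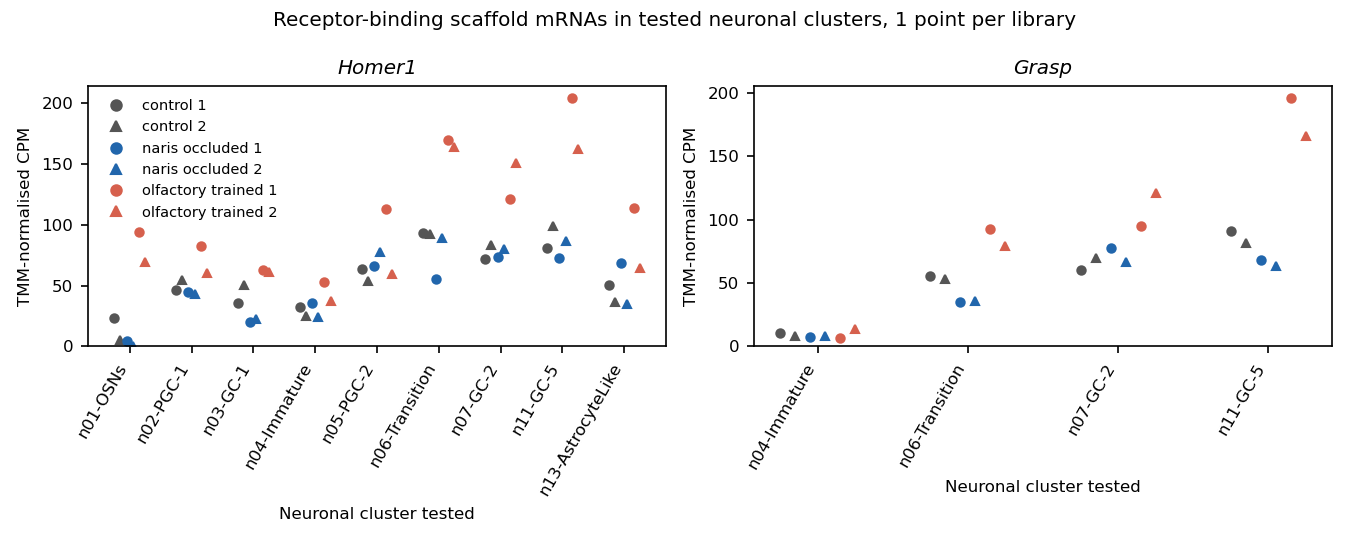
Homer1 and Grasp in the neuronal clusters where they were tested, as TMM-normalised CPM with 1 point per library (circles, replicate 1; triangles, replicate 2). In n11-GC-5 the trained libraries sit at 204 and 162 for Homer1 and 196 and 166 for Grasp, above the other 4 libraries.

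The remaining partners were described by their levels. The listed Gi/o signalling genes had their highest levels in different clusters. Gnao1, the main neuronal Go subunit, was at 312 ± 28.9 CPM in its highest cluster, Astro1, where Grm3 was also highest. Rgs4 was highest in Mural2 (751 ± 94.8 CPM). Of the glutamate transporters that clear the transmitter, Slc1a2 and Slc1a3 were highest in Astro1 as well (2420 ± 227 and 3490 ± 250 CPM). Slc17a7, the vesicular glutamate transporter of the output neurons, was highest in n17-M/TC-3 (2040 ± 287 CPM), the cluster that led for Grm8. Elfn1, a postsynaptic partner of group III receptors, was highest in n18-EPL-IN (47.9 ± 29 CPM), and Plcb1, an effector of group I, in n12-GC-6 (339 ± 63.3 CPM).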

How the data were processed

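Counts of UMIs per gene and barcode were made by the authors from 10x Chromium 3′ v2 libraries and deposited without normalization for 52549 barcodes. The submitters' processing notes name Cell Ranger 2.0.0, Seurat 2.2.1 and the build mm10 (GRCm38). The deposited annotations give each cell's library, cluster and fraction of mitochondrial UMIs, and the authors clustered cells with Seurat and removed doublets. Depth is given in the report.

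The library was taken from the annotation, since the starts of cell names are reversed for the trained libraries. Cluster names are as deposited, and some nonneuronal numbers differ from the study's supplement. Left out were 755 cells of neuronal clusters outside the annotation of neurons and 1123 barcodes without a cluster. The shallowest cell had more than 500 UMIs, so thinning to 500 UMIs (exact expected share) left out no cell.

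Levels are CPM of summed counts, and log2 ratios used a pseudocount of 1 CPM. Floors and bounds are 3 counts and cover counting error only. Conditions were compared with edgeR's quasi-likelihood test (all 6 libraries in 1 fit per population, TMM, filterByExpr, Benjamini-Hochberg at 0.05), and DESeq2 was an alternative. Versions were R 4.3.3, edgeR 4.0.16 and DESeq2 1.42.0. In data simulated for naris occluded against control in which 200 genes were given a log2 fold change of 1, the test called 44.3% of the changed genes that passed its filter in n03-GC-1 (6718 genes), 36.6% in n07-GC-2 (7891 genes), 49.5% in Astro1 (9372 genes) and 29.2% in OPC (4264 genes). The changed genes were drawn at random from genes of all levels, so these shares do not give the power for the thinly counted receptors. Standard errors came from the fold change and the F statistic. Coordinates are those of RefSeq for GRCm38.p6.

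The receptors, the partner list and the marker list were chosen with earlier results of these data known. Full statistics are given for the population with the smallest p of each receptor and comparison, for called partners (at most the 3 largest per comparison) and the 3 genes most like each receptor are named, except 2 that are not reported here. Other pairs of clusters, and the Homer1 and Grasp values in other clusters, were chosen after their values were seen. Alternatives were a replicate block, RLE factors, DESeq2, no filter on low counts, cells with at least 1000 UMIs, a pseudocount of 5 CPM, means of single-cell CPM, control libraries only, and leaving out each library. Replicate numbers go with sex as read from Xist and Ddx3y, and the labels do not tie them to shared mice.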

Additional observations from a re-analysis of the deposited data

Results flagged for a closer look

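Barcodes without a cluster (1123, with a median of 2327 UMIs) were in no comparison, and each receptor was counted in them above the 0.993 CPM that 3 counts allow. The summed levels were 84.4 CPM for Grm5, 32.1 for Grm4, 16.9 for Grm2, 12.9 for Grm3, 8.61 for Grm8 and 7.95 for Grm7. Over all annotated cells the same genes measured 48.4, 17.6, 12.9, 12.6, 7.54 and 7.27 CPM. A search for single libraries far from their group needs at least 4 samples and could not be made with 2 per condition.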

How the results depend on the processing

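No receptor was called under any alternative (smallest adjusted p = 0.347), and a replicate block also gave 0, 0 and 0 calls. The number of all gene and population pairs called, in the order occluded against control, trained against control and trained against occluded, did change, and the cause was not tested. It was 109, 159 and 298 as reported, 161, 253 and 520 with the replicate block, 19, 25 and 52 in DESeq2, and 250, 455 and 707 without a filter on low counts. Leaving out 1 library gave 132 to 285, 81 to 641 and 298 to 1210. Same-numbered libraries deviated together only weakly (mean correlations over populations 0.09, 0.11 and 0.08), so the block is given here only, with 2 pairs at most. The level of Grm4 in n07-GC-2 was 91.4 CPM in cells with at least 1000 UMIs, beside 121 CPM in all its cells. In all cells of n11-GC-5 it was 86.4 CPM, and the level at that depth is not given. With a pseudocount of 5 CPM the log2 ratios over n04-Immature were 2.59 (Grm2, axis A), 2.25 (Grm2, axis B) and 2.36 (Grm4, axis B), and the last was also 2.36 in cells with at least 1000 UMIs. The ratio of Grm8 on axis A ran from −0.17 to 0.21 over left-out libraries. The log2 fold change of Grm7 in mitral and tufted cells, trained against control, turned to 0.27 in cells with at least 1000 UMIs and ran from −0.33 to 0.31 over left-out libraries (0.16 without olfactory trained 1, 0.31 without control 2). That of Grm5 in n04-Immature, occluded against control, ran from −1.43 to 0.31 over left-out libraries. The other receptor log2 fold changes tried in this way (the smallest p of each receptor and comparison, and Grm5 pairs at an unadjusted p under 0.05) kept their sign. Depth limits small clusters most, where a level rests on few UMIs per library.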
